A study of Mus musculus with 4 samples.

Results

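Cytosolic ribosomal protein genes were followed in RNA-seq data from mouse olfactory bulbs. The members were all genes of the deposited expression table whose symbol starts with Rpl or Rps followed by a digit, with Rplp, or with Rpsa, without the Rps6k kinases and without names that hold -ps. This gave 88 of 15818 listed genes, 51 with large-subunit names and 36 with small-subunit names, besides Rps19bp1, which encodes a protein that binds Rps19 and is not part of the ribosome. Of the 77 core ribosomal proteins that such names cover, 76 were listed, and Rps27 was not. The remaining members were the 4 paralogs Rpl7l1, Rpl22l1, Rpl36al and Rps27l and 7 gene copies without -ps in their names (Rpl6l, Rpl37rt, Rps3a2, Rps3a3, Rps4l, Rps12l1 and Rps27rt). The rule also set aside 66 names with -ps and 10 Rps6k kinases.

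The study asked how recoding of Unc80, an auxiliary subunit of the NALCN sodium leak channel, by A-to-I RNA editing affects the olfactory bulb. Unc80 G/G mice (gain of editing, labelled Edited) carry a glycine codon at the edited position in the genome, and Unc80 S/S mice (loss of editing, labelled Unedited) carry another serine codon there that cannot be recoded. Both alleles were knocked in with CRISPR/Cas9 in B6D2F1 embryos, so both groups carry an engineered allele, and no wild-type library was analysed here. The mice were males aged 2 to 5 months, with 2 libraries per genotype. Samples were pooled from 3 mice each, with 6 mice per genotype, which is read here as 2 libraries of 3 mice.

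The 2 Unc80 G/G libraries held 35465913 and 35694633 raw reads, against 35800890 and 38051810 in the 2 Unc80 S/S libraries. Markers of olfactory bulb neurons were all listed (12 of 12), with sums of 4417 CPM in Unc80 G/G and 4458 CPM in Unc80 S/S mice. Olfactory sensory neuron markers summed to 181 CPM in Unc80 G/G and 166 CPM in Unc80 S/S mice, with 3 of 4 higher in Unc80 G/G mice. Choroid plexus markers (5 of 6 listed) summed to 15.7 CPM in Unc80 G/G and 9.65 CPM in Unc80 S/S mice. Astrocyte markers summed to 2540 CPM in Unc80 G/G and 2430 CPM in Unc80 S/S mice, with 4 of 4 higher in Unc80 G/G mice. Log2 ratios of the sums were 0.053 for red blood cell, -0.014 for microglia and -0.016 for oligodendrocyte markers. Any part of these cell types in the results was not tested. In bulk tissue, fewer cells of a type and less RNA per cell cannot be told apart.

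The cytosolic ribosome is built from a small (40S) subunit, which reads the mRNA, and a large (60S) subunit, which joins amino acids. Each subunit holds 1 copy of nearly every ribosomal protein, and the cell makes these proteins in matched amounts. Their mRNAs are short, abundant and controlled together, mostly at the level of translation through a pyrimidine tract at the first base, called the terminal oligopyrimidine tract. Because these mRNAs are abundant, retrotransposition has left many intronless copies of them in mammalian genomes. Most are processed pseudogenes, which have lost protein-coding function but can be nearly identical to the mRNA.

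The sequences below are 75-base windows, the read length of the libraries, taken from the coding part of a single exon in the GENCODE M21 transcripts (GRCm38), 5′ to 3′ along the mRNA. They show what a read could use to separate a ribosomal protein gene from its copy or paralog, and capitals mark the bases that differ within a pair. For the genes with a processed copy, the window with the most differing bases is given. The first pair shows Rps6 (chr4:86856785-86856859, minus strand) and Rps6-ps4 (chr2:75191742-75191816, minus strand), which do not differ at any base.
Rps6: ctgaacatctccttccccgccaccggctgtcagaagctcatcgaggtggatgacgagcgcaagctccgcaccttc
Rps6-ps4: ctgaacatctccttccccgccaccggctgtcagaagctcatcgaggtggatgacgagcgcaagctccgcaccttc
The second pair shows Rpl3 (chr15:80082508-80082582, minus strand) and Rpl3-ps1 (chrX:13202575-13202649, plus strand), which differ at 1 base.
Rpl3: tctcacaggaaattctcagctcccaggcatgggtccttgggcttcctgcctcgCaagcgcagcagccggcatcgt
Rpl3-ps1: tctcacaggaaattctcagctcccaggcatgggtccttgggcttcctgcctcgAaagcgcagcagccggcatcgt
The third pair shows Rps10 (chr17:27632282-27632356, minus strand) and Rps10-ps2 (chr16:20822244-20822318, minus strand), again with 1 differing base.
Rps10: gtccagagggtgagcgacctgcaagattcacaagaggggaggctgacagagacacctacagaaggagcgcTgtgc
Rps10-ps2: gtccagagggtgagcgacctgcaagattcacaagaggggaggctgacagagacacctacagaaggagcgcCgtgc
For paralogs, the window with the fewest differing bases is given. Rpl36a (chrX:134587490-134587564, plus strand) and Rpl36al (chr12:69182846-69182920, minus strand) differ at 3 bases.
Rpl36a: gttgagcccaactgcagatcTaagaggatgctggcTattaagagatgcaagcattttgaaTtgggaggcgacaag
Rpl36al: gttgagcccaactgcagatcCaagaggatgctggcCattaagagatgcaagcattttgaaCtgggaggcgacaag
Rpl22 (chr4:152332280-152332354, plus strand) and Rpl22l1 (chr3:28807187-28807261, plus strand) differ at 17 bases even there.
Rpl22: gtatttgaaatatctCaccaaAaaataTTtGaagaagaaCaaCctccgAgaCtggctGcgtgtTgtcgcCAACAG
Rpl22l1: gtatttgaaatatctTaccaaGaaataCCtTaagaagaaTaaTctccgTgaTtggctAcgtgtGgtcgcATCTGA

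Such sharing was common among the members. Of the 76 core genes, 74 shared at least 1 window of their main mRNA with the transcript of another annotated gene, and Rps3, for one, shared none. The median core gene shared 48.5% of its windows (range 0% to 91.9%), whereas 75.2% of all annotated genes in the table shared none. A core gene shared windows with a median of 5 other genes, with at most 64 for Rpl7a. Of the 695 genes that shared a window with a core gene, 144 were themselves listed in the table. The shared percentage therefore covers more than listed copies. Rps10 shared 90.1% of its windows with RPS10-NUDT3, which is not listed, and 75% with its listed copy Rps10-ps2. Rpl13a shared 56.3% with Gm45713, also not listed, and 6.99% with its listed copy Gm11478. Aligned to the main mRNAs, 150 listed genes were near-identical copies (at least 80% identity over at least 50% of the copy) of a ribosomal protein gene, with a median identity of 99.3%, and 138 of them were annotated as pseudogenes. The copies named -ps numbered 64, and each of these names held the symbol of the gene it aligned to best.

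The deposited table gives 1 mean per genotype in CPM (read counts scaled to a common library total), and no value per library. Each value below is therefore the authors' mean of 2 libraries, with no SD, and no member could be tested. Whole reads per library could be worked back from the means for 2226 of 15818 genes (14.1%), but for 0 of 88 members. Among genes with at least 20% of their windows shared, this worked for 8 of 1625 (0.492%), against 1938 of 11726 genes (16.5%) with no shared window. The recovered genes still gave a measure of replicate error. The SD between libraries of 1 genotype, on the log2 scale, was 0.245 for genes of 1 to 5 CPM (n = 1048), 0.120 for 5 to 20 CPM (n = 620), 0.082 for 20 to 50 CPM (n = 301) and 0.052 for 50 CPM or more (n = 257). With 2 libraries per genotype, the difference between the genotype means has the same SD. It is used here as the scale for the ratios of the members and, in counts, for those of all genes. It comes from genes with little shared sequence, and whether it also holds for the members was not tested.

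The members together took 3659 CPM in Unc80 G/G and 3669 CPM in Unc80 S/S mice, a log2 ratio of the sums of -0.0041. The 150 near-identical copies took more, with 5905 CPM in Unc80 G/G and 5895 CPM in Unc80 S/S mice. Of these copies, 6 were themselves members. The plot of levels by gene shows how wide the range was and how close the genotypes stood within each gene.

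**Figure D1:**
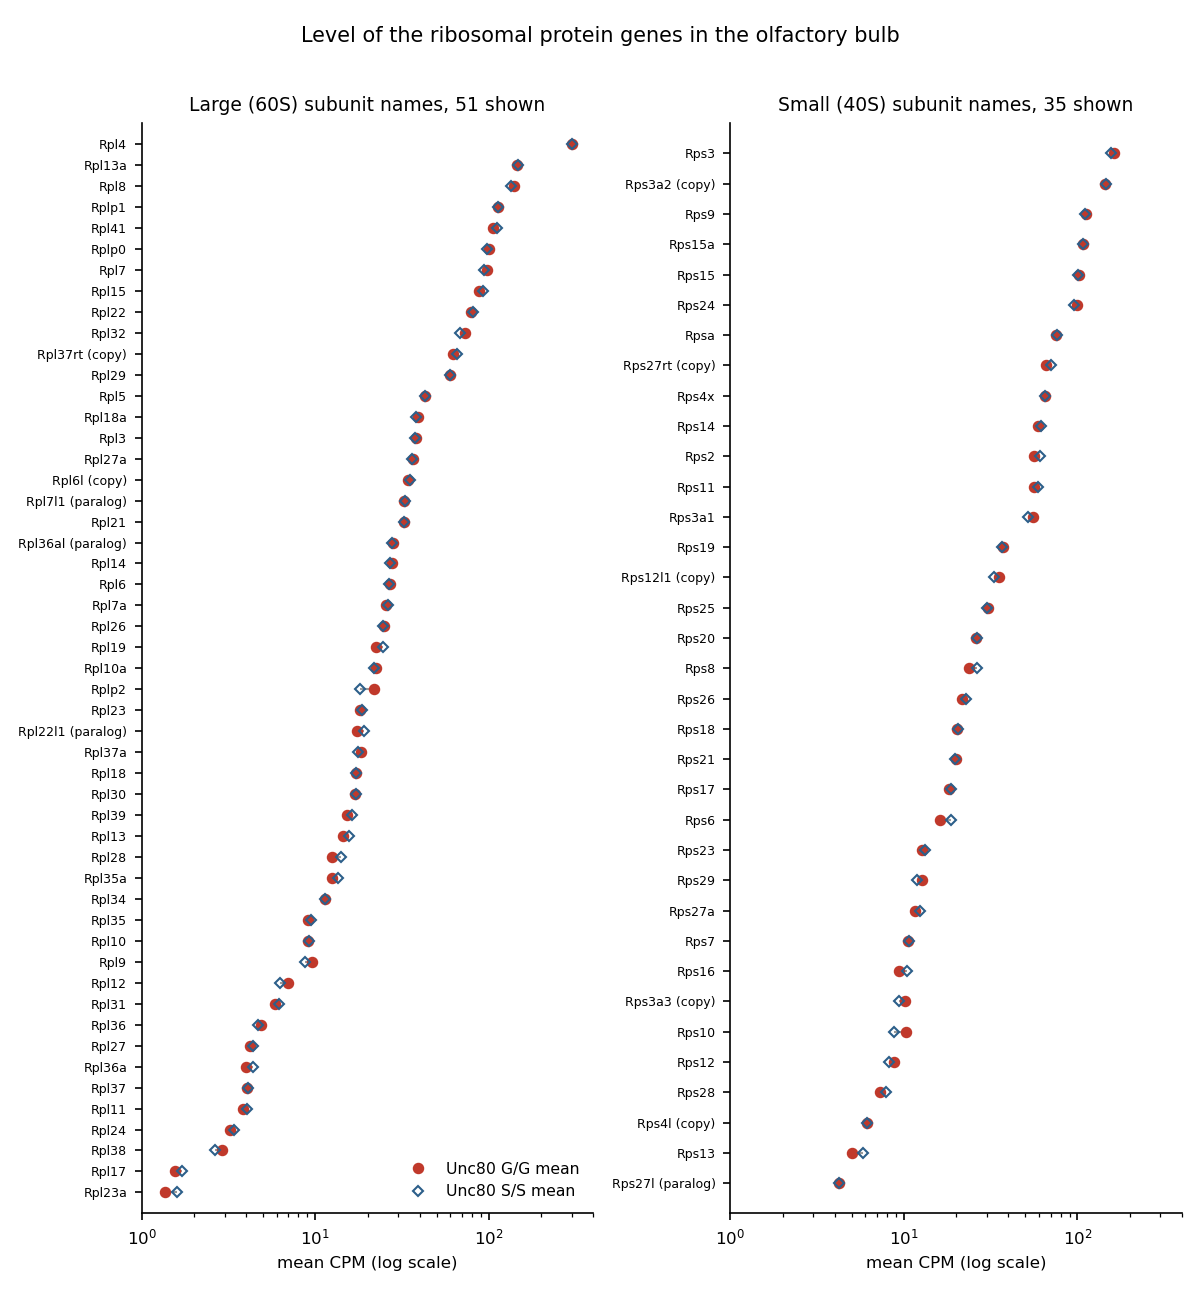
Mean CPM on a log axis for the 51 members with large-subunit names and 35 of the 36 with small-subunit names, ordered by level, with filled circles for Unc80 G/G and open diamonds for Unc80 S/S (each the authors' mean of 2 libraries, no error available). Levels ran from about 1.48 CPM (Rpl23a) to 302 CPM (Rpl4), and the 2 genotypes nearly coincide in most rows.

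Between genotypes, 38 members were higher and 50 lower in Unc80 G/G mice, where 47.2% of all genes were higher. The median log2 ratio of the members was -0.013 (quartiles -0.072 and 0.027), against -0.0052 over all genes. At a fold of 1.1, 4 members were higher and 8 lower in Unc80 G/G mice, beside 9.57% and 8.49% of all genes. The 8 lower members were 7 core genes and Rps19bp1. With a fold difference of 5% as the limit, 11 members were higher and 23 lower, beside 19.4% and 20.3% of all genes. At 20% there was 1 higher and 0 lower, beside 3.38% and 2.36%, and at 50% there was 0 in either direction, beside 0.329% and 0.19%. Measured against the spread between libraries, 1 member was higher by at least 2 SD (Rplp2) and 2 were lower (Rps2 and Rps27rt), where 2.27% of all genes were higher and 1.56% lower by as much. The members' share beyond 2 SD in either direction was 3.41%, and that of all genes 3.83%. Among genes with at least 20% of their windows shared it was 6.09%, and among genes with no shared window 3.56%.

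**Figure D2:**
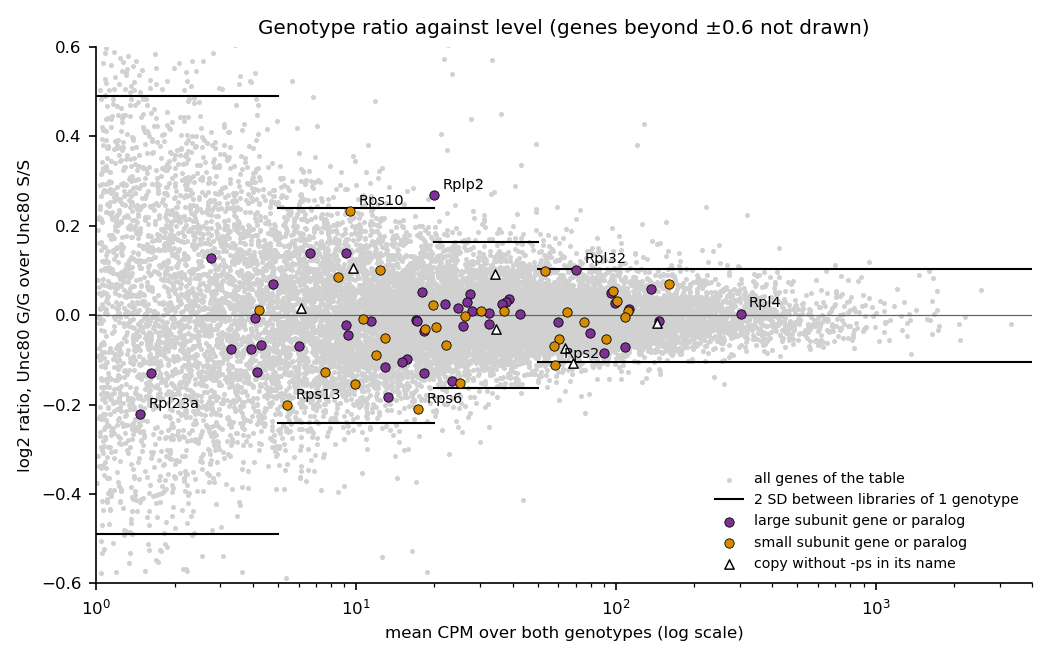
Log2 ratio of the genotype means (Unc80 G/G over Unc80 S/S) against the mean CPM on a log axis, with all genes in grey, large-subunit members in purple, small-subunit members in orange and copies as triangles. Black lines mark 2 SD between libraries of 1 genotype in each range of CPM. Rplp2 (0.27) lies above its line. Rps2 (-0.11) and the copy Rps27rt (-0.11) lie just below theirs, and the members otherwise spread around 0, more widely at low CPM.

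For the genes alone, the median ratio was the same for both subunits. The 46 core large-subunit genes had a median log2 ratio of -0.012, with 21 higher and 25 lower in Unc80 G/G mice. The 30 core small-subunit genes also had a median of -0.012, with 12 higher and 18 lower. Summed CPM was 1869 in Unc80 G/G and 1866 in Unc80 S/S mice for the large subunit. For the small subunit it was 1342 in Unc80 G/G and 1345 in Unc80 S/S mice. With near-identical copies added to each gene, the median was 0.0037 for the large and -0.013 for the small subunit. Then 26 of 46 large-subunit and 14 of 30 small-subunit families were higher in Unc80 G/G mice.

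The P stalk is the flexible arm of the large subunit that recruits the translation GTPases, and it consists of Rplp0 and 2 pairs of Rplp1 and Rplp2. Rplp0, its base, had 99.8 CPM in Unc80 G/G and 98.0 CPM in Unc80 S/S mice. Rplp1 had 113 CPM in Unc80 G/G and 112 CPM in Unc80 S/S mice. Rplp2, which pairs with Rplp1, had 21.8 CPM in Unc80 G/G and 18.1 CPM in Unc80 S/S mice. Its log2 ratio of 0.27 (1.2-fold) was the highest of all members and was 2.24 times the SD between libraries of genes of 5 to 20 CPM, with its mean of 19.98 CPM at the upper edge of that range. Rplp2 had no near-identical copy in the table, but 167 of its windows (48.1%) also occur in an annotated transcript of Wdr89. Wdr89 had 21.6 CPM in Unc80 G/G and 21.4 CPM in Unc80 S/S mice. Summed with Wdr89, Rplp2 had a log2 ratio of 0.14, and the 3 stalk genes together had 235 CPM in Unc80 G/G and 228 CPM in Unc80 S/S mice.

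Beside Rplp2, the largest positive ratios belonged to genes with low values. Rps10, in the head of the small subunit, had 10.3 CPM in Unc80 G/G and 8.74 CPM in Unc80 S/S mice (log2 ratio 0.23). Rpl9 had 9.62 CPM in Unc80 G/G and 8.73 CPM in Unc80 S/S mice (0.14). Rpl12, at the base of the stalk, had 6.94 CPM in Unc80 G/G and 6.30 CPM in Unc80 S/S mice (0.14). These 3 ratios were all under 2 SD between libraries at their level. Rpl38, known in mouse embryos for its part in translating Hox mRNAs, had 2.89 CPM in Unc80 G/G and 2.64 CPM in Unc80 S/S mice (0.13).

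The most negative ratios were found at similarly low levels. Rpl23a, at the exit of the peptide tunnel, had 1.36 CPM in Unc80 G/G and 1.59 CPM in Unc80 S/S mice (log2 ratio -0.22). Rps6, the substrate of the S6 kinases, had 16.1 CPM in Unc80 G/G and 18.6 CPM in Unc80 S/S mice (-0.21). Rps13 had 5.03 CPM in Unc80 G/G and 5.78 CPM in Unc80 S/S mice (-0.20). All 3 stayed within 2 SD between libraries at their level. Rpl28 had 12.4 CPM in Unc80 G/G and 14.1 CPM in Unc80 S/S mice (-0.18). Rps16, whose tail reaches the P-site tRNA, had 9.33 CPM in Unc80 G/G and 10.4 CPM in Unc80 S/S mice (-0.15).

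Members of at least 50 CPM, where 2 libraries are more precise, differed less. Rpl32, the highest of them in ratio, had 72.7 CPM in Unc80 G/G and 67.7 CPM in Unc80 S/S mice (log2 ratio 0.10). Rps3a1 had 55.2 CPM in Unc80 G/G and 51.6 CPM in Unc80 S/S mice (0.098). Rps3, at the mRNA entry channel, had 163 CPM in Unc80 G/G and 156 CPM in Unc80 S/S mice (0.070). None of these 3 reached 2 SD. Rpl8, close to the peptidyl transferase center, and Rps24 had ratios of 0.059 and 0.053.

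At the other end of these abundant members, Rps2 had 56.1 CPM in Unc80 G/G and 60.6 CPM in Unc80 S/S mice (log2 ratio -0.11). Rps27rt had 65.6 CPM in Unc80 G/G and 70.6 CPM in Unc80 S/S mice (-0.11). Both were just past 2 SD between libraries, at -2.12 and -2.07 SD, and both shared most of their windows with other genes (71.1% and 90.3%). Rps27rt is a retrotransposed form of Rps27, the core gene that was not listed. Rpl15 had 87.1 CPM in Unc80 G/G and 92.4 CPM in Unc80 S/S mice (-0.085). Rpl37rt had 62.3 CPM in Unc80 G/G and 65.6 CPM in Unc80 S/S mice (-0.074). Rpl41, the shortest ribosomal protein, had 106 CPM in Unc80 G/G and 111 CPM in Unc80 S/S mice (-0.072). None of the members of at least 50 CPM differed by 1.1-fold, where 1.07% of all genes at that level were higher and 0.386% lower.

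Levels of different genes were compared per kb of exon. The highest member was Rplp1, with 227 CPM per kb in Unc80 G/G and 225 CPM per kb in Unc80 S/S mice. The copies Rps3a2 and Rps27rt followed, each with a mean of 182 CPM per kb over both genotypes, then Rps15 (161 CPM per kb) and Rpl4 (150 CPM per kb), which lines the peptide tunnel. Rpl8 (100.4 CPM per kb), Rpl41 (92.8 CPM per kb), Rps12l1 (85.6 CPM per kb), Rpl37rt (85.0 CPM per kb) and Rpl32 (72.9 CPM per kb) completed the 10 highest. So 4 of the 10 highest members by this measure were copies. The lowest were Rps13 (2.01 CPM per kb), Rpl12 (1.84 CPM per kb), Rpl23a (1.74 CPM per kb), Rpl11, known for binding Mdm2 (1.46 CPM per kb), and Rpl17 (1.22 CPM per kb). The ranking depends on the length, because the annotated exons of all transcripts can far exceed the main mRNA. Rps15a had 17.2 CPM per kb of exon and 169 CPM per kb of main mRNA, and Rpl22 had 27.4 and 168 CPM per kb. Per kb of main mRNA, Rpl41 (248 CPM per kb) stood above Rplp1 (226 CPM per kb), while Rps3a2 and Rps27rt stayed at 182 CPM per kb.

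Proteins needed in equal amounts thus had listed mRNA levels that were far from equal, and lower levels went with more shared sequence. Per kb of main mRNA, the 12 core genes with under 20% of windows shared had a median of 104 CPM per kb, the 34 genes with 20% to 60% shared had 31.9 CPM per kb, and the 30 genes with 60% or more shared had 19.2 CPM per kb. Across the 76 core genes, the shared percentage and this level had a Spearman correlation of -0.47, and with the copies added to each gene it was 0.40, both descriptions across genes of the same libraries. Rps20 was an exception at the low end (7.07 CPM per kb with 6.55% shared), and its annotated main transcript is 3706 bases long. With the CPM of the near-identical copies added, the medians became 111, 117 and 176 CPM per kb in the 3 classes. The SD of the log2 level across core genes was 1.58 for the genes alone and 0.76 with their copies. The highest core gene stood 118-fold above the lowest for the genes alone, and 22.6-fold with their copies.

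**Figure D3:**
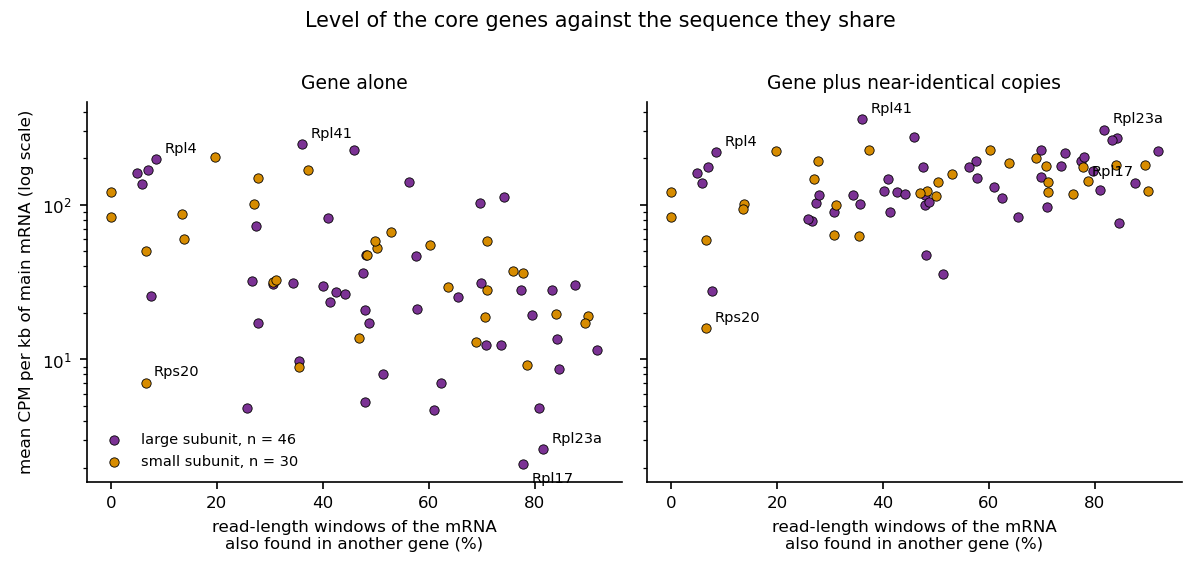
Mean CPM per kb of main mRNA (log axis) of the 76 core genes against the percentage of their 75-base windows that also occur in another annotated gene, for the gene alone on the left and for the gene plus its near-identical copies on the right. Points are genes, colored by subunit. Alone, Rpl17 and Rpl23a lie near 2 CPM per kb, and with their copies they join the other genes above 100 CPM per kb.

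Copies outweighed the gene in most families. In 53 of 76 core families the copies summed to more CPM than the gene, and in 50 a single copy did so. Rpl3, at the peptidyl transferase center, had 38.2 CPM in Unc80 G/G and 37.5 CPM in Unc80 S/S mice, whereas its copy Rpl3-ps1, which differs at 1 base in the window above, had 307 CPM in both. Rps6-ps4, identical to Rps6, had 142 CPM in both genotypes. Rpl5, which forms a particle with 5S rRNA, had 42.6 CPM in both genotypes, against 195 CPM in both for its copy Gm15500. Rpl17 held 0.978% of the CPM of its family in Unc80 G/G and 1.08% in Unc80 S/S mice. Rpl23a held 0.782% in Unc80 G/G and 0.944% in Unc80 S/S mice. At the other end, Rpl32 held 97.8% of its family in Unc80 G/G and 97.7% in Unc80 S/S mice. Rpl4 held 89.6% in Unc80 G/G and 89.8% in Unc80 S/S mice. By itself, a read from an identical window cannot be assigned to a gene or its copy, and only the other read of its pair could separate them. Whether pairs were used in this way is not known, so a level given to one of them alone is uncertain.

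Adding the copies also narrowed the genotype ratios. The SD of the log2 ratio across the 76 core genes was 0.092 for the genes alone and 0.057 with their copies. With their copies, 2 core families were at least 1.1-fold higher in Unc80 G/G mice, with 0 lower, against 4 higher and 7 lower for the genes alone. Of all genes, 9.57% were higher and 8.49% lower by as much, and of genes of at least 50 CPM 1.07% and 0.386%. The median level was 110 CPM for the families and 22.2 CPM for the genes alone, so the 2 counts belong beside different shares. The family of Rps10 had 61.7 CPM in Unc80 G/G and 61.0 CPM in Unc80 S/S mice, a log2 ratio of 0.018 in place of 0.23. The family of Rpl23a had 174 CPM in Unc80 G/G and 168 CPM in Unc80 S/S mice, a log2 ratio of 0.050 in place of -0.22. Rps13 likewise had -0.20 alone and 0.029 with its copies. A sum over more reads has less counting error by construction. The Rps6 family had 158 CPM in Unc80 G/G and 161 CPM in Unc80 S/S mice (-0.022).

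**Figure D4:**
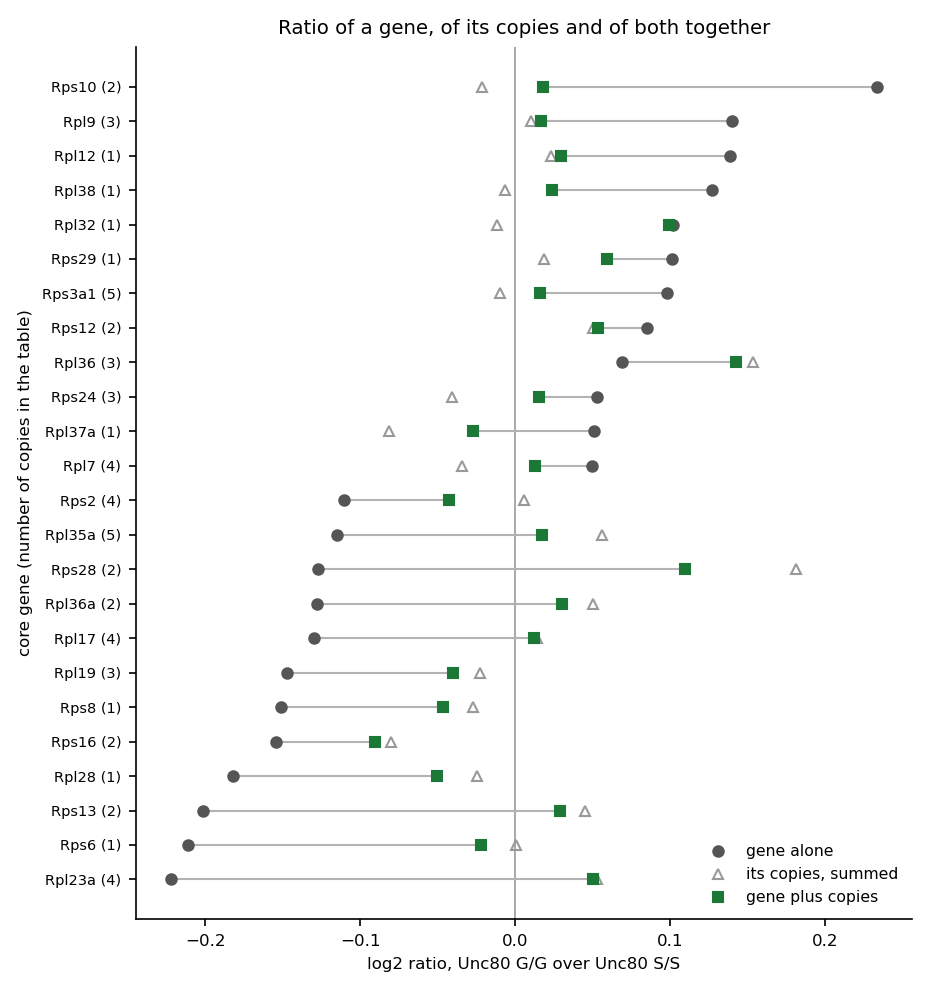
Log2 ratio of Unc80 G/G over Unc80 S/S means for the 12 core genes with the highest and the 12 with the lowest ratio among those with a copy in the table (number of copies in brackets), with circles for the gene alone, triangles for its copies summed and squares for gene plus copies. The rows were chosen by the ratio of the gene alone. Squares lie nearer 0 than circles in most rows, from 0.23 to 0.018 for Rps10, while for Rpl36 (0.14) the square lies farther out.

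The 2 families at 1.1-fold or more were those of Rplp2 (0.27, no copy in the table) and Rpl36 (0.14). For Rpl36 the gene had 4.89 CPM in Unc80 G/G and 4.66 CPM in Unc80 S/S mice, and its 3 copies had 33.9 CPM in Unc80 G/G and 30.5 CPM in Unc80 S/S mice. The gene and the sum of its copies had opposite signs in 38 core families and the same sign in 34. Among core genes with 60% or more of windows shared, 7 of 30 were higher in Unc80 G/G mice, with a median log2 ratio of -0.068, and their CPM summed to 577 in Unc80 G/G and 594 in Unc80 S/S mice. With copies added, 14 of these 30 were higher and the median was -0.012. Of the 664 genes outside the ribosomal protein families with 60% or more of windows shared, 48.9% were higher in Unc80 G/G mice. Core genes with under 20% of windows shared had a median of 0.013, and 7 of 12 were higher in Unc80 G/G mice.

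Paralogs that encode alternative forms of a protein had similar shares in both genotypes. Rpl22l1, which Rpl22 represses in mice, had 17.4 CPM in Unc80 G/G and 19.1 CPM in Unc80 S/S mice (log2 ratio -0.13). Rpl22 had 78.6 CPM in Unc80 G/G and 80.9 CPM in Unc80 S/S mice (-0.041). Per kb of exon, Rpl22l1 made up 24.5% of the pair in Unc80 G/G and 25.6% in Unc80 S/S mice. Rpl22l1 itself has a listed near-identical copy, Gm15421, with 15.5 CPM in Unc80 G/G and 16.5 CPM in Unc80 S/S mice. The ratios of Rpl22l1 and Rpl22 were both within 2 SD between libraries at their level.

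Rpl7l1, a homolog of Rpl7, had 32.4 CPM in Unc80 G/G and 32.8 CPM in Unc80 S/S mice. Rpl7 had 97.6 CPM in Unc80 G/G and 94.3 CPM in Unc80 S/S mice. Rpl7l1 was 20.3% of the pair in Unc80 G/G and 21.1% in Unc80 S/S mice. Rpl36al, an autosomal form of the X-linked Rpl36a, had 28.0 CPM in Unc80 G/G and 27.8 CPM in Unc80 S/S mice. Rpl36a had 3.98 CPM in Unc80 G/G and 4.35 CPM in Unc80 S/S mice. The paralog was 89.6% of this pair in Unc80 G/G and 88.7% in Unc80 S/S mice. Rpl36a shared 84.6% and Rpl36al 61.3% of their windows with other genes. By CPM with the near-identical copies of Rpl36a added, Rpl36al was 43.1% in Unc80 G/G and 43.4% in Unc80 S/S mice. Nothing was added to Rpl36al, which had no copy that met the limits. Yet 259 of its windows (57.3%) also occur in the listed gene Gm49383, so this share is uncertain as well. Rps27l, a p53-inducible form of Rps27, had 4.25 CPM in Unc80 G/G and 4.22 CPM in Unc80 S/S mice.

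The copies among the members were set beside the gene they match. Rps3a2 had 144 CPM in Unc80 G/G and 145 CPM in Unc80 S/S mice, more than Rps3a1. Rps3a3 had 10.1 CPM in Unc80 G/G and 9.40 CPM in Unc80 S/S mice. Rps12l1 had 35.2 CPM in Unc80 G/G and 33.1 CPM in Unc80 S/S mice, whereas Rps12 had 8.75 CPM in Unc80 G/G and 8.25 CPM in Unc80 S/S mice. Rpl37 had 4.07 CPM in Unc80 G/G and 4.08 CPM in Unc80 S/S mice, under its copy Rpl37rt. Rpl6l had 34.2 CPM in Unc80 G/G and 35.0 CPM in Unc80 S/S mice, and Rpl6 had 27.0 CPM in Unc80 G/G and 26.5 CPM in Unc80 S/S mice. Rps4l had 6.16 CPM in Unc80 G/G and 6.10 CPM in Unc80 S/S mice, well under the X-linked Rps4x with 65.1 CPM in Unc80 G/G and 64.8 CPM in Unc80 S/S mice. Rps19bp1, with 0% of windows shared, had 7.73 CPM in Unc80 G/G and 8.52 CPM in Unc80 S/S mice (log2 ratio -0.14).

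At the start sites of RefSeq (GRCm38.p6), 63 of 88 members were matched, with 74 starts. A terminal oligopyrimidine start was searched as C at the first transcribed base followed by 4 bases that are each C or T, on the transcribed strand. It was found in 12 of 56 matched core genes (21.4%), against 3.01% of all genes with a RefSeq start. It was found in 7 of 34 large-subunit and 5 of 22 small-subunit genes. By the same search it was found in 3 of 19 translation factors and related genes, 5 of 67 nuclear respiratory chain genes and 2 of 3 ribosomal proteins outside the name rule. It was found in 0 of 33 ribosome assembly factors, 0 of 69 mitochondrial ribosomal proteins and 0 of 8 Rps6k kinases. The search takes the annotated start as exact, so a tract that begins a few bases away was not counted. Rpl18 and Rpl27a, for example, had runs of C and T beside the annotated start and were counted as without a tract. Genes in which the search found no tract can therefore still have a tract. Starts are printed from 10 bases before the start, with the tract in capitals. The 4 members shown were chosen for having both a large ratio, in either direction, and a tract. They are Rps10 (chr17:27635225-27635254, minus strand), Rplp2 (chr7:141447641-141447670, plus strand), Rps6 (chr4:86857348-86857377, minus strand) and Rpl28 (chr7:4792955-4792984, plus strand).
Rps10: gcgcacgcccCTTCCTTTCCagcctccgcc
Rplp2: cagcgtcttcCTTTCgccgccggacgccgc
Rps6: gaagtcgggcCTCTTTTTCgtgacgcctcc
Rpl28: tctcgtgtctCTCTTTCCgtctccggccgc
Of these 4 genes with a tract, Rps10 and Rplp2 were higher and Rps6 and Rpl28 lower in Unc80 G/G mice. Rpl38, also among the largest ratios, had a tract too. Rpl9, Rpl12, Rps13 and Rps16, likewise among the largest ratios, had none at their annotated start. Whether a tract goes with the size of a ratio was not tested.

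Genes of related processes were read in the same table. Their single ratios were not set against the spread between libraries. The lowest level was 2.21 CPM among mitochondrial ribosomal proteins and 1.22 CPM among nuclear respiratory chain genes. At 1 to 5 CPM the SD between libraries was 0.245. Outside the name rule, log2 ratios were 0.020 for Rsl24d1, 0.0074 for Rack1, a scaffold on the small subunit, and -0.14 for Fau, a fusion of a ubiquitin-like protein with a ribosomal protein. None of these 3 reached 1.1-fold. Of 25 translation factors and related genes, 10 had higher values in Unc80 G/G mice, the median was -0.015, and 0 reached 1.1-fold. Their largest ratios were those of Tpt1 (0.097), Eif3m (0.076), Btf3 (-0.077) and Eif3k (-0.093). Of 40 ribosome assembly factors, 12 were higher in Unc80 G/G mice, with a median of -0.019, and 1 was at least 1.1-fold higher and 5 lower, beside 9.57% and 8.49% of all genes. Fbl, the rRNA methyltransferase fibrillarin (0.23), and Utp4 (0.13) stood at the top, and Bysl (-0.19) and Rrp9 (-0.25) at the bottom.

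Mitochondrial ribosomal proteins, which build a separate ribosome, had a median of -0.020, with 35 of 81 higher in Unc80 G/G mice. At 1.1-fold, 2 of 81 were higher and 8 of 81 lower, beside the same 9.57% and 8.49% of all genes. Mrpl27 (0.18) and Mrpl2 (0.15) had their highest ratios, and Mrps18c (-0.21) and Mrpl23 (-0.42) the lowest. Nuclear genes of the respiratory chain had a median of -0.0096, with 35 of 85 higher in Unc80 G/G mice. Atp5g2 (0.33), Cox6b2 (0.26), Uqcr11 (-0.14) and Ndufa7 (-0.15) were their extremes. The 10 Rps6k kinases had a median of -0.017 and 0 at 1.1-fold, from 0.13 (Rps6ka4 and Rps6ka6) to -0.091 (Rps6ka2) and -0.10 (Rps6kc1).

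Reads per library existed for 15 genes of these lists, and none was called at an adjusted p under 0.05. Mrpl10 had 673 and 666 reads in the Unc80 G/G libraries, against 827 and 743 in the Unc80 S/S libraries, so the genotypes did not overlap. Relative to counted reads, the genotypes did not overlap for 17.6% (Unc80 G/G higher) and 14.8% (Unc80 G/G lower) of the recovered genes. Mrpl10 had a log2 fold change of -0.18 ± 0.070 (SE) and an adjusted p of 0.876 (edgeR quasi-likelihood test, Benjamini-Hochberg over 2226 genes). Over all recovered genes the test called 2 genes (0.0898%), Junb and Ttr, both higher in Unc80 G/G mice and both named after their values were seen. Ttr is also among the choroid plexus markers above. At an unadjusted p under 0.05 there were 115 genes. Neither of the called genes encodes a ribosomal protein.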

How the data were processed

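RNA was taken with TRIzol from olfactory bulbs and sequenced as 75-base paired-end reads on a NextSeq 500. The labels and the study's methods name different TruSeq stranded kits. The authors trimmed, aligned and compared the reads in Partek Flow against the mouse build GRCm38 (named mm10 in the submitters' notes). No source used here gives the aligner, the annotation, the treatment of multiply mapped reads or the test. The authors deposited the raw read count of each library and a table with 1 mean CPM per genotype (the lowest mean over both genotypes is 1.01 CPM). The deposited table also holds the authors' own p-values, adjusted p-values, ratios and signed fold changes, which were not used. The number of columns with values of other samples was 0. CPM values summed to 998014 for Unc80 G/G and 998057 for Unc80 S/S, and ratios are log2 of Unc80 G/G over Unc80 S/S without a pseudocount.

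Symbols were matched to GENCODE M21, where 15593 of 15818 (98.6%) named 1 gene. Shared windows were exact 75-base matches, in the same orientation, between the main transcript (best APPRIS rank, then longest coding part) and any transcript of another gene. Copies were found with BLAST 2.17.0. Each mean CPM was written as whole reads of 2 libraries over their counted reads (24738078 and 25345718 in Unc80 G/G, 25238203 and 26479648 in Unc80 S/S) plus 0.0001 CPM. Solved genes were tested with edgeR 4.0.16 (main), DESeq2 1.42.0 and limma 3.58.1 in R 4.3.3. The libraries recovered in this way are not tied to replicate numbers. The recovery and the count test were tested on simulated data.

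The members and lists were chosen with earlier results of these data known. The genes named are the P stalk, the paralog and copy pairs, the 10 highest and 5 lowest members per kb of exon, the 5 largest ratios in each direction over all members and among those of at least 50 CPM, and the 2 largest in each direction of each list, apart from a few values that are not reported here. Rpl3, Rpl5, Rpl36, Rps20, Rps19bp1, Mrpl10 and Wdr89 were added after their values were seen. The sums with copies and the classes of shared sequence were also added after the data were seen. Alternatives covered the pseudocount, abundance filters, scaling, the fold threshold, length scales and the count test.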

Additional observations from a re-analysis of the deposited data

How the results depend on the processing

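The median log2 ratio of the members stayed between -0.013 and 0.0071 with a pseudocount, abundance filters, other scalings, members with little shared sequence or copies added, and was -0.068 for the 30 core genes with 60% or more of windows shared. The difference between large and small subunit medians stayed between -0.0068 and 0.0053 with a pseudocount, abundance filters and other scalings. With copies added, the core medians stood farther apart, at 0.0037 for the large and -0.013 for the small subunit. The log2 ratio of the summed CPM was -0.0041 as deposited and -0.0040 rescaled. Centring on the median of all genes (-0.0052) changed the sign of 2 members.

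The counts at 1.1-fold (4 higher, 8 lower, beside 9.57% and 8.49% of all genes) moved more. With a pseudocount of 1 CPM, 2 were higher. Members of at least 50 CPM had 0 in either direction. Limits of 5%, 20% and 50% gave 11, 1 and 0 higher and 23, 0 and 0 lower. Members with under 20% of windows shared had 0 higher and 1 lower (of 16), which was Rps19bp1. The 12 core genes among them had 0 in either direction. Core genes with their copies added had 2 higher and 0 lower, those with 20% to 60% shared 2 and 2, and those with 60% or more 2 and 5.

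Shares of a paralog depend on the length used and on the copies. For Rpl22l1, they were 18.1% by CPM, 18.9% per coding kb and 16.0% per kb of main transcript in Unc80 G/G, and 19.1%, 19.8% and 16.8% in Unc80 S/S mice. For Rpl7l1, they were 24.9%, 26.7% and 22.7% in Unc80 G/G, and 25.8%, 27.6% and 23.6% in Unc80 S/S mice. For Rpl36al, they were 87.5%, 87.5% and 86.6% in Unc80 G/G, and 86.5%, 86.5% and 85.4% in Unc80 S/S mice. By CPM with copies added, a choice made after the data were seen, Rpl22l1 was 28.7% in Unc80 G/G and 29.8% in Unc80 S/S, Rpl7l1 15.8% and 16.1%, and Rpl36al 43.1% and 43.4%. Rpl7l1 and Rpl36al had no copy that met the limits, so in these pairs copies were added only to Rpl7 and Rpl36a.

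The count of recovered genes called by edgeR (2) became 6 with TMM factors, 1 with DESeq2, 0 among 1719 genes with at least 50 reads (79 at an unadjusted p under 0.05), and 0 to 2 when each library was left out in turn, where the lone library of a genotype is assumed to vary like the others. No paired analysis was possible because the table holds means and the recovered libraries carry no replicate number. Means of 2 libraries limit every comparison of the members, and no SD of their own could be given.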
